A study of Mus musculus with 6 samples.

Results

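VEGF ligands, neuropilins and lymphocyte semaphorins are described here in regulatory T (Treg) cells differentiated with or without sorafenib (Sora). The set holds 10 genes, chosen by symbol from the 22939 genes of the count table, and all 10 were found and passed the filter on low counts. They are the ligands Vegfa, Vegfb, Vegfc and Pgf, the neuropilins Nrp1 and Nrp2, the semaphorins Sema4a, Sema4d and Sema7a, and the plexin Plxnb2. The 6 RNA-seq libraries were 3 of ctrl-Treg cells and 3 of Sora-Treg cells. Both groups started from naive CD4+ T cells of knock-in mice that express GFP from Foxp3 (C57BL/6J background) and were cultured with plate-bound anti-CD3, anti-CD28, TGF-β1 and antibodies against IFN-γ and IL4, and GFP+ cells were sorted for sequencing. Sora-Treg cells also received Sora, a multikinase inhibitor used in liver cancer whose targets include the VEGF receptors, while ctrl-Treg cells received none. The dose and duration for these libraries and the age of the mice are not given in the sources used here. The cells were induced in a dish and do not stand for thymus-derived Treg cells.

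Secreted VEGF ligands act through receptor tyrosine kinases (Flt1, Kdr and Flt4) on the receiving cell, and neuropilins are co-receptors that bind both VEGF and class 3 semaphorins. Semaphorins of class 4 and class 7 sit on the surface of lymphocytes and signal through plexins and other receptors on neighbouring cells. In Treg cells Nrp1 is best known as a marker of thymic origin and as a receptor for Sema4a.

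Total counts per library ranged from 30727686 to 37717324, and replicates varied little (biological coefficient of variation 4.29%). Foxp3, Cd4, Cd3e, Il2ra, Ctla4 and Ikzf2 were all detected, with summed levels of 3605 to 3657 CPM (counts scaled to the effective library size by TMM) in ctrl-Treg libraries and 6301 to 6431 CPM in Sora-Treg libraries. Most of that difference was Il2ra (1934 to 3795 CPM) and Ctla4 (383 to 1108 CPM). Cd3e also rose (230 to 348 CPM), while Foxp3, Cd4 and Ikzf2 were close between groups. Markers of other cell types were low but not level. The summed level of 8 myeloid markers was 93.6, 93.1 and 24.9 CPM in ctrl-Treg replicates 1 to 3 and 22.4, 43.0 and 20.8 CPM in Sora-Treg replicates 1 to 3. Of 7 myeloid markers tested, 5 were lower and 0 higher in Sora-Treg cells. The sum of 5 dendritic cell markers was 73.4 to 80.8 CPM in ctrl-Treg and 46.6 to 48.2 CPM in Sora-Treg libraries, and that of 4 B cell markers was 1.53 to 2.39 CPM against 0.251 to 0.365 CPM, with all 3 tested genes of each list lower. Most of the dendritic sum was Bst2 (60.9 and 42.8 CPM on average), an interferon-inducible gene that is not limited to dendritic cells, and nearly all of the rest was Zbtb46 (15.4 and 4.13 CPM), while Itgax and Xcr1 had at most 8 counts in any library. The sum of 5 endothelial markers was 9.95 to 12.7 CPM in ctrl-Treg and 38.1 to 40.4 CPM in Sora-Treg libraries, and it came from Pecam1, which T cells also express, since the other 4 had at most 10 counts in any library. Of these lists, no marker held by the count table was at 0 in all libraries. The count table did not hold 2 listed dendritic cell markers (Siglech and Clec9a) under those symbols. In bulk RNA, fewer cells of a type and less RNA per cell cannot be told apart.

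A gene was called when its adjusted p was under 0.05 in edgeR's quasi-likelihood test, with Benjamini-Hochberg adjustment over all 13463 genes tested. By that rule 5 members rose, 3 fell and 2 were not called, against a background of 59.6% of all tested genes called, 29.7% higher and 29.9% lower. With libraries scaled by their totals alone, 3 members were called higher and 3 lower, and the split over all tested genes moved from 3994 higher and 4028 lower to 2862 and 5614. The members called higher were Vegfa, Vegfb, Pgf, Sema4d and Sema7a, and those called lower were Nrp1, Sema4a and Plxnb2. Vegfc and Nrp2, both at low counts, were not called. The groups did not overlap in 8 of 10 members, where the background was 63.7% of tested genes. A further limit of a 2-fold change left 1 member higher (Pgf) and 0 lower, where the background was 6.3% higher and 4.97% lower (11.3% in either direction). The median log2 fold change was 0.02 over the members and -0.0035 over all tested genes, and the median size without sign was 0.39 and 0.28.

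**Figure D1:**
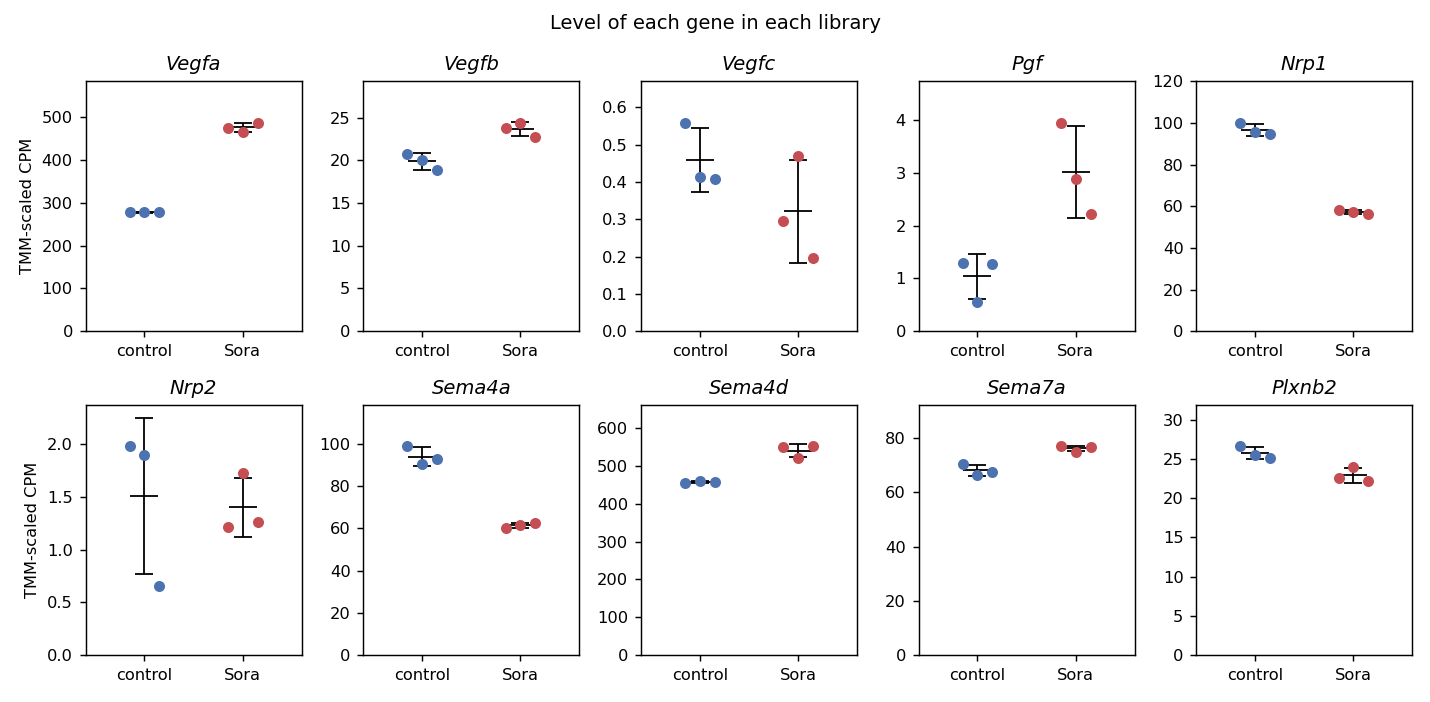
Level of each of the 10 members in each library, in TMM-scaled CPM on a separate linear axis per gene, for 3 ctrl-Treg and 3 Sora-Treg libraries, with the group mean and SD as lines. The groups are apart in 8 panels and overlap in the panels of Vegfc and Nrp2.

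Promoter sequence is shown for Vegfa and Vegfb, which rose, and for Sema4a, which fell, so that the letters just before the start site can be compared between members that moved in opposite directions. Each run gives the 250 bases before the outermost RefSeq start on GRCm38.p6, 5′ to 3′ on the gene's strand, with the GC box GGGCGG or its reverse complement CCGCCC in capitals.
Vegfa promoter, chr17:46032378-46032627, minus strand: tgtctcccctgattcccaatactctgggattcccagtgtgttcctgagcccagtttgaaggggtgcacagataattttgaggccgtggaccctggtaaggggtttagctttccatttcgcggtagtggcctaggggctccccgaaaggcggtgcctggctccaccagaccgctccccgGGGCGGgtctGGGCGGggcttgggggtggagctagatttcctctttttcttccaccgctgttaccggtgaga
Vegfb promoter, chr19:6987652-6987901, minus strand: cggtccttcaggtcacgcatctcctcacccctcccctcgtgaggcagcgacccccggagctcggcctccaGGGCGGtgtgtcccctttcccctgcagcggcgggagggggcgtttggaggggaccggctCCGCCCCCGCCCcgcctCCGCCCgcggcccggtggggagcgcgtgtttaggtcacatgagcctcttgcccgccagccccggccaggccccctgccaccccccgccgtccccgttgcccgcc
Sema4a promoter, chr3:88461183-88461432, minus strand: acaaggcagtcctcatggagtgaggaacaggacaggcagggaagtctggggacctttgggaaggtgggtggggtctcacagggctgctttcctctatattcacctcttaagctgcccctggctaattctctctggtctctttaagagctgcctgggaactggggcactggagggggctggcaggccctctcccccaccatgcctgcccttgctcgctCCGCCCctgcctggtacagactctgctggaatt
The Vegfa window held 2 GC boxes, the Vegfb window 4 and the Sema4a window 1. Both strands were searched. The windows of the other members were not all alike, since for 5 (Pgf, Nrp1, Sema4d, Sema7a and Plxnb2) the outermost start listed lay inside the gene span given here, and these are counted apart. A GC box was present in the windows of all 5 remaining members (Vegfa, Vegfb, Vegfc, Nrp2 and Sema4a). Over the windows of all 10 members it was in 9, with none in that of Sema4d. It was in 32.96% of 27025 promoters of the same length, each before the outermost start listed for its gene. These promoters were not limited by gene span as the 5 windows were, so the 2 sets are unlike. Among promoters of genes tested here the share was 57.5% of 10701. The hypoxia response core ACGTG was in 0 of the 5 windows and in 21.9% of promoters of tested genes. The FOXO core TGTTTAC (2.25% of promoters of tested genes) and the AP-1 motif TGANTCA (4.22%) were likewise in 0 of the 5. None of these motifs was in the windows of the other members either. A missing match says only that these letters are not in these windows.

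Vegfa, the main angiogenic ligand of the family, was the most abundant VEGF ligand. The gene lies on chromosome 17 from 46016993 to 46032377 (GRCm38.p6, minus strand). Its level was 279, 277 and 278 CPM in ctrl-Treg replicates 1 to 3 and 474, 466 and 487 CPM in Sora-Treg replicates 1 to 3. All Sora-Treg libraries were above all ctrl-Treg libraries, with a gap much wider than the spread within either group. The means were 278 ± 0.648 and 476 ± 10.4 CPM (SD, n = 3), a 1.71-fold rise. On the log2 scale the change was 0.78 ± 0.03 (SE, adjusted p = 6.34e-17 in edgeR). Per gene length, Vegfa rose from 69.2 to 109 FPKM on average (counts over gene length and library total). On this scale Vegfa went from below Sema4d, which averaged 71.995 FPKM in ctrl-Treg cells, to above it in the order of the members. That switch rests on the gene lengths behind FPKM. GENCODE exon lengths are 7679 against 6619 bases for Sema4d, and 4285 against 4174 for Vegfa. Whether the switch holds with GENCODE lengths was not tested.

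Vegfb, a ligand of Flt1 linked to fatty acid handling in endothelium, was far less abundant and moved less (chromosome 19, 6982472 to 6987651, minus strand). It had 20.8, 20.003 and 18.9 CPM in ctrl-Treg libraries and 23.8, 24.4 and 22.8 CPM in Sora-Treg libraries, so the lowest Sora-Treg value was above the highest ctrl-Treg value. The log2 fold change was 0.25 ± 0.07 (SE, adjusted p = 0.00359 in edgeR), or 1.19-fold. With libraries scaled by their totals alone it was 0.13, and the call was lost (edgeR adjusted p = 0.1004).

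Pgf, placental growth factor, binds Flt1 and was the only member to rise more than 2-fold (chromosome 12, 85166637 to 85177785, minus strand). Counts were 51, 20 and 41 in ctrl-Treg libraries and 120, 92 and 79 in Sora-Treg libraries. The levels were 1.30, 0.550 and 1.28 CPM against 3.95, 2.89 and 2.22 CPM. The groups did not overlap, although replicates within each group differed more than for any abundant member. The rise was 2.88-fold, or 1.53 ± 0.30 on the log2 scale (SE, 95% interval 0.91 to 2.15, adjusted p = 1.35e-04 in edgeR). Pgf remained a rare transcript, at 1.33 FPKM on average in Sora-Treg cells. On log2(FPKM + 1), where the pseudocount is larger than its control level, the change was 0.63.

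Vegfc, the lymphangiogenic ligand of Flt4, was close to the limit of detection (chromosome 8, 54077532 to 54186454). It had 22, 15 and 13 counts in ctrl-Treg libraries and 9, 15 and 7 counts in Sora-Treg libraries. The groups overlapped. The summed counts were 50 (95% Poisson interval 37.1 to 65.9) and 31 (21.1 to 44.0), intervals that cover counting error only. The log2 fold change of -0.53 ± 0.47 (SE, adjusted p = 0.345 in edgeR) had a 95% interval from -1.50 to 0.44, so a fall of more than 2-fold or a small rise was not excluded at this depth.

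Adding the 4 ligands on the FPKM scale gave 86.1 ± 1.23 FPKM for ctrl-Treg cells and 129 ± 1.61 FPKM for Sora-Treg cells (SD, n = 3). Vegfa made up 79.6, 80.5 and 81.1% of that sum in ctrl-Treg libraries and 84.7, 84.4 and 86.1% in Sora-Treg libraries. The shares did not overlap between groups, and an exact two-sided permutation test gave p = 0.1, the smallest value that 3 libraries against 3 allow. The difference of 4.66 points was 1.77 points on counts not divided by gene length. The share of Vegfb averaged 18.7% for ctrl-Treg cells and 13.8% for Sora-Treg cells. Pgf and Vegfc made up the rest, 0.578% and 0.295% on average without Sora.

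**Figure D2:**
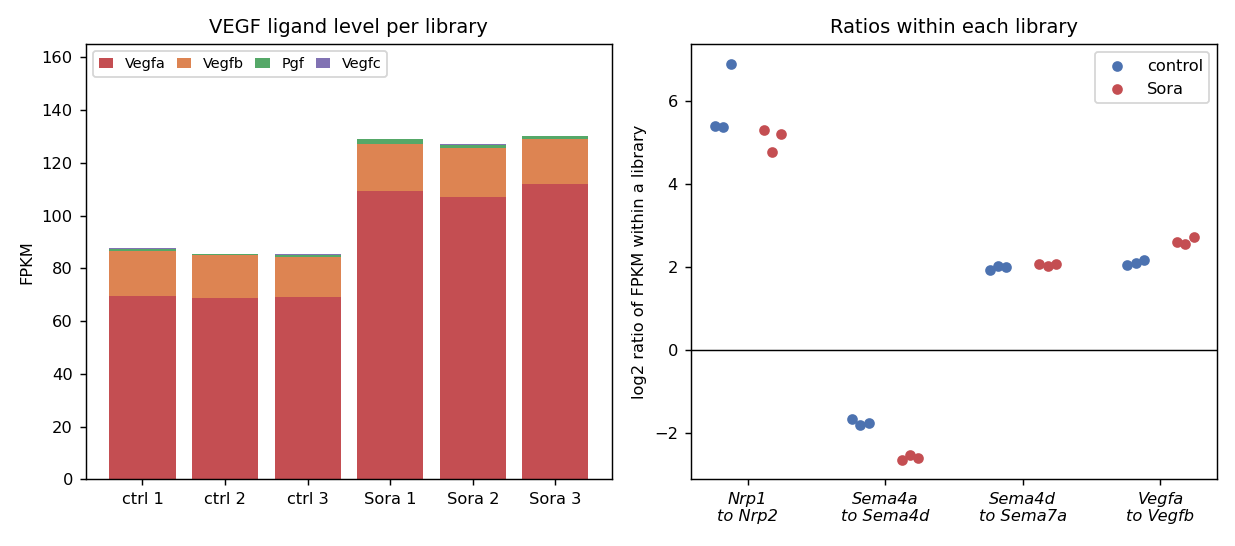
Levels of the 4 VEGF ligands stacked by library in FPKM, and 4 within-library FPKM ratios on a log2 axis, for 3 ctrl-Treg and 3 Sora-Treg libraries. The ligand sum averages 86.1 FPKM for ctrl-Treg cells and 129 FPKM for Sora-Treg cells, with Vegfa as the largest part in every library.

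The 3 VEGF receptor tyrosine kinases were below the filter on low counts and were not tested in the main comparison. Kdr, the main receptor of Vegfa, had 2, 2 and 0 counts in ctrl-Treg libraries and 2, 9 and 10 counts in Sora-Treg libraries. When every gene with at least 1 count was kept, Kdr was called higher (log2 2.40 ± 0.98, SE, adjusted p = 0.0409 in edgeR), but DESeq2 did not call it (adjusted p = 0.0817). Flt1 had 6, 9 and 7 counts against 3, 3 and 3. Flt4 had at most 2 counts in any library. Receptor transcripts of this family were barely detectable at this depth.

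Nrp1, a neuropilin and Treg surface receptor, fell (chromosome 8, 128358591 to 128505476). It had 100.05, 95.5 and 94.6 CPM in ctrl-Treg libraries and 58.2, 57.1 and 56.4 CPM in Sora-Treg libraries. Every Sora-Treg value was below every ctrl-Treg value. The mean level was 1.69-fold higher in ctrl-Treg cells, with a log2 fold change of -0.76 ± 0.04 (SE, adjusted p = 1.46e-13 in edgeR). On the FPKM scale the means were 10.3 and 5.65. Leaving out ctrl-Treg replicates 1 and 2, which held more myeloid marker RNA, gave a log2 fold change of -0.72. That left ctrl-Treg replicate 3 alone, with a dendritic sum of 73.4 CPM and a B cell sum of 1.53 CPM. Both were above all Sora-Treg libraries, so the value of -0.72 cannot speak to those sums. Their part in the Nrp1 values was not tested.

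Ikzf2, which encodes Helios, is often used together with Nrp1 to mark thymic Treg cells, and it was not called here. It averaged 147 CPM without Sora and 149 CPM with Sora, and its log2 fold change was 0.02 ± 0.04 (SE, adjusted p = 0.654 in edgeR). Its sign turned under some scalings (-0.0948 with library totals alone). Foxp3, the reporter gene of the sort, had a log2 fold change of 0.07 ± 0.03 (SE, adjusted p = 0.0405 in edgeR), which turned to -0.0410 with library totals alone. Its groups overlapped in CPM, and the call was lost without ctrl-Treg replicate 2, ctrl-Treg replicate 3, Sora-Treg replicate 1 or Sora-Treg replicate 3, each left out singly (adjusted p up to 0.176 in edgeR).

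Nrp2, the neuropilin better known for binding Vegfc and class 3 semaphorins, was rare (chromosome 1, 62703317 to 62818692). It had 78, 69 and 21 counts in ctrl-Treg libraries and 37, 55 and 45 counts in Sora-Treg libraries. As levels these were 1.98, 1.90 and 0.658 CPM against 1.22, 1.73 and 1.26 CPM, so the ctrl-Treg libraries lay on both sides of the Sora-Treg libraries. The log2 fold change was -0.12 ± 0.33 (SE, adjusted p = 0.770 in edgeR), with a 95% interval from -0.81 to 0.57. The libraries were ordered in part like the sum of the myeloid markers. Within the groups, ctrl-Treg replicates 1 and 2 were high in both, ctrl-Treg replicate 3 was low in both and Sora-Treg replicate 2 was the highest of its group in both, while ctrl-Treg replicate 3 was below all Sora-Treg libraries in Nrp2 only. Of the 8 myeloid markers, 7 were at least 2-fold higher in both ctrl-Treg replicates 1 and 2 than in replicate 3. Lyz2, which encodes a lysozyme of macrophages and neutrophils, had 47.5, 47.9 and 12.6 CPM in ctrl-Treg libraries and 5.64, 21.2 and 4.66 CPM in Sora-Treg libraries. The part of myeloid RNA in the Nrp2 values was not tested. Without ctrl-Treg replicate 1 the log2 fold change of Nrp2 was 0.12, without replicate 2 it was 0.07, and without both it was 1.09 (edgeR adjusted p = 0.0887).

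**Figure D3:**
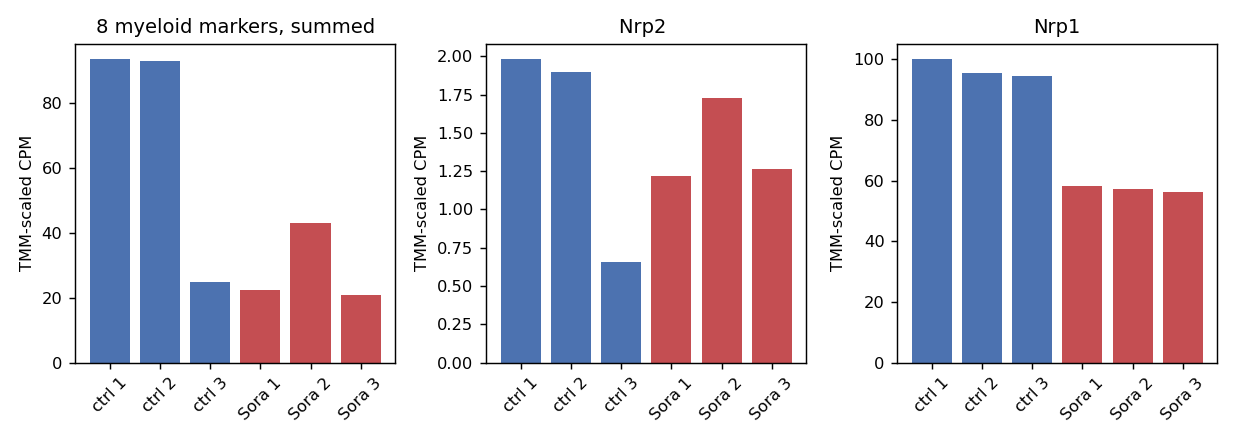
Levels of Nrp1 and Nrp2 and the summed level of 8 myeloid marker genes in each library, in TMM-scaled CPM. Nrp1 separates the groups, while Nrp2 and the myeloid sum are both lower in ctrl-Treg replicate 3 than in ctrl-Treg replicates 1 and 2.

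Sema4a, a class 4 semaphorin that stimulates T cells and is a ligand of Nrp1 and of plexins, fell (chromosome 3, 88435959 to 88461182, minus strand). It had 98.9, 90.5 and 92.8 CPM in ctrl-Treg libraries and 60.2, 61.7 and 62.5 CPM in Sora-Treg libraries. The groups did not overlap. The mean was 1.53-fold higher in ctrl-Treg cells and the log2 fold change was -0.61 ± 0.04 (SE, adjusted p = 1.58e-11 in edgeR). The dendritic cell sum, carried mostly by Bst2, and the B cell sum were also lower in Sora-Treg libraries, as given above, and their part in the Sema4a values was not tested. Without ctrl-Treg replicates 1 and 2, which held more myeloid marker RNA, the log2 fold change was -0.59. The ctrl-Treg replicate 3 that was kept had a dendritic sum of 73.4 CPM and a B cell sum of 1.53 CPM. Both were above all Sora-Treg libraries, so the value of -0.59 cannot speak to those sums. In the order of members by mean FPKM, Sema4a was behind only Sema4d and Vegfa in ctrl-Treg cells (21.6 FPKM). It was also behind Sema7a and Vegfb in Sora-Treg cells (13.0 FPKM). This order rests on the gene lengths behind FPKM.

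Sema4d (CD100), abundant on resting T cells and a ligand of Plxnb1, Plxnb2 and Cd72, rose slightly (chromosome 13, 51685529 to 51793678, minus strand). It had 455, 462 and 458 CPM in ctrl-Treg libraries and 550, 521 and 552 CPM in Sora-Treg libraries. The rise was 1.18-fold, with a log2 fold change of 0.24 ± 0.03 (SE, adjusted p = 8.38e-08 in edgeR) and no overlap between groups. Its size depended on the processing. Over 18 alternatives the log2 fold change lay between 0.12 and 0.27, and the call was kept in all of them.

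Sema7a, a membrane-anchored semaphorin that binds integrins and Plxnc1, rose less (chromosome 9, 57939596 to 57962865). It had 70.5, 66.5 and 67.4 CPM in ctrl-Treg libraries and 77.0, 75.0 and 76.6 CPM in Sora-Treg libraries, and the groups were apart on this scale. The log2 fold change was 0.16 ± 0.04 (SE, adjusted p = 0.00144 in edgeR). This call depended on the scaling. With library totals alone the log2 fold change was 0.0459 (edgeR adjusted p = 0.339), and the groups overlapped in FPKM.

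Plxnb2, a receptor of class 4 semaphorins, was the member with the weakest call (chromosome 15, 89155546 to 89182018, minus strand). It had 26.6, 25.5 and 25.1 CPM in ctrl-Treg libraries and 22.5, 24.03 and 22.2 CPM in Sora-Treg libraries, without overlap. The log2 fold change was -0.17 ± 0.06 (SE, adjusted p = 0.0299 in edgeR). The call was lost without ctrl-Treg replicate 1, ctrl-Treg replicate 2, Sora-Treg replicate 1 or Sora-Treg replicate 3, each left out singly, with edgeR adjusted p from 0.0593 to 0.123 and log2 fold changes from -0.17 to -0.14. DESeq2 did not call it either (adjusted p = 0.0694).

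**Figure D4:**
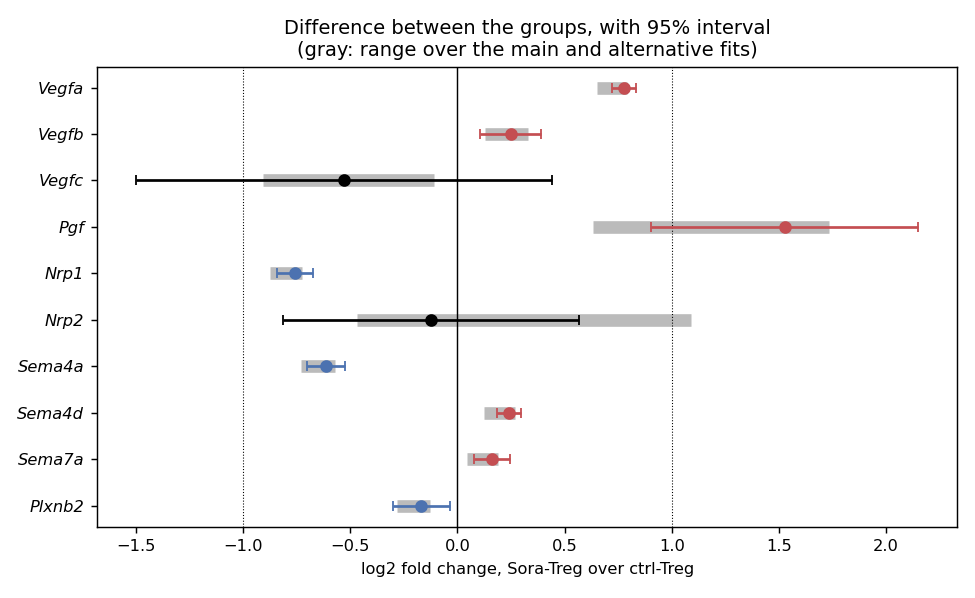
Log2 fold change (Sora-Treg minus ctrl-Treg) of the 10 members with 95% intervals from edgeR, on 3 libraries per group, the range over the alternatives in gray and 2-fold changes as dotted lines. Pgf lies highest at 1.53, Nrp1 lies lowest at -0.76, and the intervals of Vegfc and Nrp2 include 0.

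Within-library ratios do not depend on how libraries are scaled, and 4 were compared on the FPKM scale. The ratio of Sema4a to Sema4d was 0.318, 0.286 and 0.296 in ctrl-Treg libraries and 0.160, 0.173 and 0.165 in Sora-Treg libraries, a difference of -0.85 in log2 units. The ratio of Vegfa to Vegfb was 4.11, 4.26 and 4.52 against 6.11, 5.87 and 6.57, a difference of 0.52 in log2 units. Neither ratio overlapped between groups, and each reached the smallest exact permutation p of 0.1 (two-sided, 0.133 adjusted over 4 ratios). The ratio of Nrp1 to Nrp2 was 42.1, 42.0 and 120 in ctrl-Treg libraries and 39.8, 27.6 and 37.2 in Sora-Treg libraries, also without overlap (exact permutation p = 0.1, adjusted 0.133), but its ctrl-Treg spread came from replicate 3. The ratio of Sema4d to Sema7a differed by 0.08 in log2 units, with an exact permutation p of 0.2.

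Neighbours in the order of mean FPKM were apart between libraries in nearly all places. That separation covers the spread between libraries only. The order between genes also rests on the gene lengths behind FPKM, and exon lengths in GENCODE differ from these. For Sema7a they are 3298 against 3896 bases, and for Sema4a 5406 against 4532. The order with GENCODE lengths was not computed. In ctrl-Treg cells the order from the top was Sema4d, Vegfa, Sema4a, Sema7a, Vegfb, Nrp1, Plxnb2, Pgf, Vegfc and Nrp2, from 71.995 down to 0.194 FPKM, and the libraries overlapped only between Pgf and Vegfc and between Vegfc and Nrp2. In Sora-Treg cells the order was Vegfa, Sema4d, Sema7a, Vegfb, Sema4a, Nrp1, Plxnb2, Pgf, Nrp2 and Vegfc, from 109 down to 0.164 FPKM, with an overlap only between Nrp2 and Vegfc.

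The wider pathway was followed with lists from general knowledge, chosen with earlier results of these data known, so their counts are descriptions. Of 101 genes listed, 79 were tested, and 49 rose and 17 fell, which is 83.5% called beside the background of 59.6%. Lists with tested genes ranged from 61.1% to 100% called. With library totals alone 40 rose and 23 fell. Among 17 other semaphorins, 9 were tested, of which 5 rose and 2 fell (77.8% called), and the median log2 fold change was 0.83. Sema4g had 82, 75 and 67 counts in ctrl-Treg libraries and 336, 373 and 395 counts in Sora-Treg libraries, a 5.42-fold rise (log2 2.44 ± 0.13, SE, adjusted p = 1.01e-13 in edgeR). Sema6b (1.06), Sema3b (0.96) and Sema3f (0.88) were also called higher on the log2 scale, the last 2 being secreted class 3 semaphorins that use neuropilins.

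All 5 tested plexins other than Plxnb2 were called (background 59.6%), 2 higher and 3 lower. With library totals alone 1 was higher and 3 were lower. Plxnc1, the plexin that binds Sema7a, fell from 17.3 to 6.13 CPM (log2 -1.50 ± 0.09, SE, adjusted p = 3.04e-12 in edgeR). Plxna1, a partner of neuropilins, fell from 104 to 38.0 CPM (log2 -1.46 ± 0.05, SE, adjusted p = 8.24e-17 in edgeR). Plxnb1, a high-affinity receptor of Sema4d, was called higher with a log2 fold change of 0.45, a call lost without Sora-Treg replicate 2 (0.36, adjusted p = 0.0568 in edgeR). Plxnd1 fell by 0.28 on the log2 scale.

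Of 6 other semaphorin receptors, 3 were tested. Cd72, a receptor of Sema4d best known from B cells, had a log2 fold change of -0.55 ± 0.06 (SE, adjusted p = 4.74e-08 in edgeR), but it overlaps Tesk1, which was also lower (-0.37), and the counting was not stated to use strand. Itgb1, the integrin subunit through which Sema7a acts, rose by 0.30. Timd2, a receptor of Sema4a in mice, was rare, with 33, 22 and 33 counts in ctrl-Treg libraries and 64, 70 and 88 in Sora-Treg libraries. It was called higher (log2 1.46 ± 0.28, SE, adjusted p = 1.06e-04 in edgeR), and it was named after its values were seen. All 6 neuropilin partners were tested, of which 3 rose and 2 fell (83.3% called, beside the background of 59.6%). L1cam (0.88), Myo6 (0.46) and Gipc1 (0.31) rose on the log2 scale, and the TGF-β receptor Tgfbr2 had -0.17.

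Of 18 tested genes of plexin signaling, 8 rose and 3 fell, which is 61.1% called, close to the background of 59.6%. The balance turned to 4 higher and 8 lower with library totals alone. The small GTPase gene Rras, a substrate of plexin GAP domains, rose by 1.02 on the log2 scale. Rnd1 (-1.44), a GTPase that binds plexins, and Mical3 (-0.69) fell. Of 6 tested proteases that cut VEGF ligands or semaphorins, 3 rose and 1 fell (66.7% called), or 1 rose and 2 fell with library totals alone. Mmp14 had a log2 fold change of 0.75 ± 0.22 (SE, adjusted p = 0.00506 in edgeR), Adam10 had -0.26 and Pcsk7 had 0.24. Mmp14 had 114, 110 and 47 counts in ctrl-Treg libraries, low in the replicate with less myeloid marker RNA, a part that was not tested, and without ctrl-Treg replicate 3 its log2 fold change was 0.50. Pcsk7 overlaps Rnf214, which moved alike, and it was not called with library totals alone (0.12, adjusted p = 0.0518 in edgeR). Furin was called with 0.12, which was 0.0029 with library totals alone.

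Regulators of Vegfa and hypoxia-inducible genes were listed because Vegfa is a textbook target of hypoxia-inducible factors. Of 16 tested regulators, 10 rose and 5 fell (93.75% called, beside the background of 59.6%). Hif1a rose from 264 to 689 CPM (log2 1.39 ± 0.03, SE, adjusted p = 1.79e-20 in edgeR). It overlaps the predicted gene Gm15283, which had 71 to 160 counts per library, where Hif1a had 8599 to 24018. Egln3 (1.69) and Egln1 (0.81), prolyl hydroxylases that act on hypoxia-inducible factors, and Zfp36 (1.17), which promotes decay of AU-rich transcripts, rose on the log2 scale. All 16 tested hypoxia-inducible genes were called higher, where the background was 29.7% higher, with a median log2 fold change of 0.77. The smallest change was that of Ddit4 (0.06), which turned to -0.0517 with library totals alone, where the other 15 were still called higher. Ndrg1 rose from 415 to 1244 CPM, and Adm had a log2 fold change of 1.44.

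**Figure D5:**
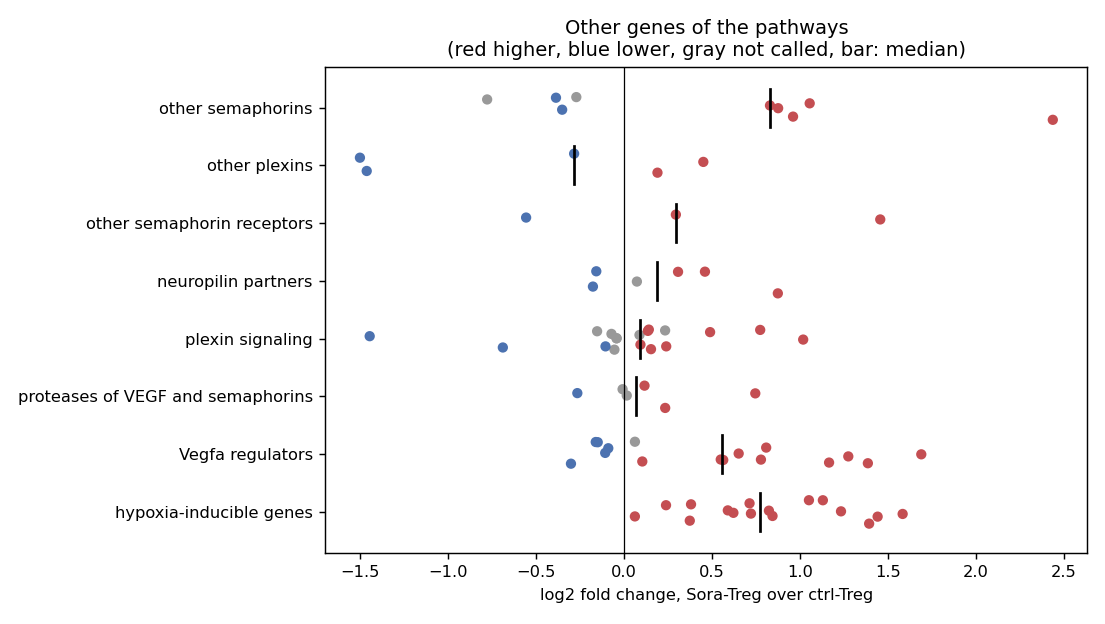
Log2 fold change (Sora-Treg minus ctrl-Treg) of each tested gene in the pathway lists, with genes called higher in red, called lower in blue and not called in gray, and the median of each list as a bar. All 16 hypoxia-inducible genes lie above 0, except that Ddit4 turns below 0 with library totals alone, whereas the 5 plexins lie on both sides.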

How the data were processed

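The series holds 6 libraries of sorted Treg cells, 3 control and 3 sorafenib, grouped and numbered by their titles. Raw counts of 22939 genes, listed by symbol, were deposited by the authors, with FPKM values for the same columns. Each deposited FPKM value equalled the count over a fixed gene length and the total of its library (largest relative difference 1.64e-06), so it is no separate measurement. The methods of the study name Bowtie2 and GRCm38, while the submitters' processing notes name fastp, HISAT2, HTSeq, R 3.2.0, DESeq2 and GRCm39. Which of these made the files, the annotation release and the use of strand are not given in the sources used here. Among members, Gm33153 overlaps Vegfc and Gm32643 overlaps Nrp1, and both had few counts.

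Counts were tested with edgeR 4.0.16 (quasi-likelihood, TMM scaling, filterByExpr, no covariate) in R 4.3.3, with Benjamini-Hochberg adjustment over 13463 genes, on a threshold of 0.05 and, for 2-fold changes, a log2 limit of 1. Standard errors were those that the F statistic implies. Levels per library are TMM-scaled CPM, and members are ranked against each other only in FPKM. Marker sums add CPM over genes of unlike length, so the parts of a sum also follow gene length. Ratios and shares were tested with exact two-sided permutation tests. The scripts were tested on simulated data. A floor of 3 counts was 0.0762 to 0.0989 CPM, for counting error only. Libraries of a group differed by more than sampling noise (chi-square per degree of freedom 3.48 to 6.23). Whether they came from separate cultures or animals is not stated, so p-values measure the spread between these libraries, which may be technical.

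The members and lists were chosen with earlier results of these data known. Named genes were all members, the VEGF receptors, at most 4 called genes with the largest log2 fold change and a mean log2 CPM of at least 1 per list, and Ikzf2 and Foxp3. Timd2, Lyz2, Pecam1, Bst2, Zbtb46, Itgax, Xcr1 and Ddit4 were named after their values were seen. Treg markers were named as a list, and Il2ra, Ctla4 and Cd3e were singled out from it by their values. Tesk1, Rnf214 and Gm15283 were named because they overlap a named gene. A gene of the plexin signaling list that this rule names is not reported here. Coordinates and promoters are from RefSeq on GRCm38.p6, and all 10 members were matched. Same-numbered libraries did not deviate together (correlations -0.0438, 0.0591 and 0.0299), so the numbers were not treated as pairs. The alternatives were other scalings, other filters, robust estimation, DESeq2 1.42.0, limma 3.58.1 on log2(FPKM + 1) or log2(FPKM + 0.1), the replicate number as a block, and each library left out.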

Additional observations from a re-analysis of the deposited data

How the results depend on the processing

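Vegfa, Pgf, Nrp1, Sema4a and Sema4d kept their direction and their call in all 18 alternatives. Scaling by library totals alone moved the median of all genes by -0.12 on the log2 scale. With it 3 members were called higher, and Vegfb (0.13, edgeR adjusted p = 0.1004) and Sema7a (0.0459) were not called. On log2(FPKM + 1) without a filter 3 members were called higher, Vegfb was not called (0.13, limma adjusted p = 0.0786) and Sema7a was at 0.0445. With the filter Sema7a was at 0.0445, and at 0.0467 with a pseudocount of 0.1. With a pseudocount of 1, filtered or not, 0 members were higher by more than 2-fold. Plxnb2 was not called by DESeq2 (-0.17) and lay between -0.20 and -0.14 when single libraries were left out. Nrp2 lay between -0.47 and 0.12, reversing without control replicate 1 (0.12) and without control replicate 2 (0.07).

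Leaving out both control replicates 1 and 2 was chosen after seeing the data. The lone control library was then assumed to vary like the sorafenib libraries. Without both, Nrp2 was at 1.09, Plxnb2 at -0.13, and the log2 ratio of Nrp1 to Nrp2 differed by -1.80. On counts not divided by length, the Vegfa share of the ligand sum differed by 1.77 points in place of 4.66. Ikzf2 reversed with upper quartile scaling (-0.0174), library totals (-0.0948), FPKM (-0.0892, -0.0951 and -0.0892) and without sorafenib replicate 2 (-0.0199, in a range up to 0.0577 with single libraries left out). Foxp3 reversed with library totals (-0.0410) and FPKM (-0.0394, -0.0399 and -0.0394). On log2(FPKM + 1) without a filter, Sema6b, Sema3f, Plxnb1, Myo6, Mmp14, Pcsk7 and Furin were not called either. The cause was not tested.

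With the replicate number as a block, 5 members were called higher and 3 lower, Nrp2 was at -0.0309 and Pgf at 1.55, and the block changed no call of a member. Depth limits Vegfc and the VEGF receptors, while Nrp2 is limited by the spread between control libraries (78, 69 and 21 counts).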
